A study of Mus musculus with 31 samples.

Results

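The genes of the proteasome were followed through alveolar macrophages (AM) of RAGE null and wild-type (WT) mice, breathing either room air or cigarette smoke (CS). They were taken as every protein-coding gene of the deposited table whose symbol begins with Psma, Psmb, Psmc, Psmd, Psme, Psmf or Psmg and a digit. This rule uses no measured value but was chosen with earlier results of these data known, and 48 of the 13521 listed genes met it. By role they comprised 8 genes of the 20S alpha ring, 7 of the constitutive 20S beta ring, 4 of the immunoproteasome and its interferon-inducible activator (Psmb8, Psmb10, Psme1 and Psme2), 6 ATPases and 11 other subunits of the 19S cap, 3 assembly chaperones of the cap, 4 assembly chaperones of the 20S core, and 3 other regulators. Psmc3ip, a factor of meiotic recombination, and Psme2b-ps, a near copy of Psme2, met the rule by symbol only and bring the total to 48. Reads that aligned to more than 1 place were removed by the authors, so reads that fit both Psme2 and its copy may be missing from each. A listed gene on the other strand overlaps 10 members (Psma3, Psma4, Psmb7, Psmb8, Psmb10, Psmc3, Psmd3, Psmd13, Psme1 and Psmc3ip), and the strand setting of the counting is not given in the sources used here, so their reads may be mixed with those of the other gene. A listed gene on the same strand overlaps Psmb5, Psmd1, Psmd13, Psmd14 and Psme2b-ps, whose reads may be mixed under any strand setting. The immunoproteasome subunit gene Psmb9 and the thymus subunit gene Psmb11 were not analysed here.

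RNA of AM, the resident phagocytes of the air spaces, was recovered by bronchoalveolar lavage and sequenced in 31 libraries, 1 per mouse, to learn how the response of these cells to CS differs where RAGE, a receptor of advanced glycation products encoded by Ager, is missing. At 7 days there were 3 WT controls, 4 WT mice with CS, 4 RAGE null controls and 4 RAGE null mice with CS, and at 4 months each of these groups had 4 mice. WT mice were C57BL6, and RAGE null mice carried a homozygous null mutation of Ager throughout the body on that background and came from a colony of their own. All mice were between 8 and 12 weeks old when exposure began, those used for AM expression were male, and controls breathed room air. The age at lavage and the length of exposure both separate the 7-day from the 4-month libraries, so levels were compared only within a time point.

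The proteasome is the cylinder of proteases that degrades proteins marked with ubiquitin. Rings of alpha subunits gate the 20S core, and rings of beta subunits enclose 3 kinds of active site, carried by Psmb5 (chymotrypsin-like), Psmb6 (caspase-like) and Psmb7 (trypsin-like). The 19S cap binds ubiquitinated proteins, removes the ubiquitin and unfolds the protein with a ring of ATPases. Under interferon-gamma, Psmb8, Psmb9 and Psmb10 are built in instead of Psmb5, Psmb6 and Psmb7, which favours peptides that fit class I histocompatibility molecules, and macrophages carry such immunoproteasomes at rest. When proteasome activity falls, the transcription factor Nrf1 (Nfe2l1) raises most subunit genes together, and its relative Nrf2 (Nfe2l2) raises several of them under oxidative stress, both through antioxidant response elements.

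The 100 bases before the RefSeq start site are given for 2 constitutive catalytic subunits that were higher in WT mice at 4 months and for 2 immunoproteasome subunits that did not pass that test. The sequences come from RefSeq on GRCm38.p6 and read 5′ to 3′ on the strand of the gene. Capitals mark a match to the core of the antioxidant response element, TGACNNNGC, in Psmb5 and Psmb6 and to the gamma activated site, TTCNNNGAA, in Psmb8, searched on both strands, and the window of Psmb10 held neither. In that order the windows lie at chr14:54617996-54618095 (minus strand), chr11:70525257-70525356 (plus), chr17:34198095-34198194 (plus) and chr8:105938393-105938492 (minus).
Psmb5: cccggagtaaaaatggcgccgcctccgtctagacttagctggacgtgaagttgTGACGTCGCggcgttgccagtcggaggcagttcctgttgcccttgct
Psmb6: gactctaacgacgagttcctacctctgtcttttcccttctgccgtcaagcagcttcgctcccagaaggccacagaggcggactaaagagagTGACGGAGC
Psmb8: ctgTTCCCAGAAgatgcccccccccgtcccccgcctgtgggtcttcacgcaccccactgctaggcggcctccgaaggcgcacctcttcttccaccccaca
Psmb10: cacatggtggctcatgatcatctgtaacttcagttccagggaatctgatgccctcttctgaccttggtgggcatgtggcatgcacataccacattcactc

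From 250 bases before to 50 after the start site, windows were matched for 40 of the 48 genes. The antioxidant response element core was in 6 of the 40, or 15%, against 14% of 27025 genes. Besides Psmb5 and Psmb6 it was found in Psmc6, an ATPase (chr14:45329587-45329615, plus strand), in Psmd12, a scaffold subunit of the cap, in Psmd9 and in Psme4. The core of the interferon-stimulated response element, read as GAAA, any 2 bases and GAAA, was in 5 of 40, or 12.5%, against 3.99%. The 5 were Psmb3, Psmd4, Psmd9, Psmg4 and Psme1, the alpha subunit of the 11S activator (chr14:55578493-55578522, plus strand). Psme1 was the 1 carrier among the 4 immunoproteasome genes. The gamma activated site was in 3 of 40 (Psmb8, Psmd2 and Psmg1) against 9.55%, and the CCAAT box (CCAAT) in 13 of 40 against 41.1%. Of these carriers of the gamma activated site, Psmd2 was higher in WT mice at 4 months, in control and in CS-exposed mice. No match of one motif overlapped a match of another in these windows. The next lines give these sites of Psmc6 and Psme1 as they stand on the strand of the gene, with the match, here in the opposite direction, in capitals.
Psmc6: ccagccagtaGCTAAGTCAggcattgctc
Psme1: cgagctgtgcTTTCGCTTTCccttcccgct

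Library totals, in M counts, ran from 11.67 to 19.98 at 7 days and from 12.77 to 34.49 at 4 months, where control WT replicate 1 (replicates are numbered from 0 to 3) stood apart at 34.49 M. All 48 genes passed the filter on low counts at both time points, and the lowest count of a member in any library was 30. Ager did not check the labels: in CPM, the counts scaled to library size with TMM factors, it lay between 4.38 and 7.74 in WT and between 4.02 and 5.70 in RAGE null mice at 7 days, and at 4 months it was higher in the RAGE null groups (2.63 to 4.03 CPM) than in WT (0.644 to 2.44 CPM), with WT minus RAGE null log2 differences of −0.90 (adjusted p = 0.0206, edgeR) in control and −1.34 (adjusted p = 0.00400) in CS-exposed mice. A count per gene does not show from which part of Ager its reads came, so groups follow the labels, and each direction between genotypes below rests on them. Markers of AM (11 of 12 listed) summed to between 18180 and 29960 CPM in every library. Summed markers of type 2 alveolar cells (8 of 8 listed) ran from 145 to 440 CPM and of monocytes (4 of 4) from 583 to 3439 CPM, and their ranges by group are given beside the results. Dendritic cell markers (5 of 5) summed to at most 40.2 CPM, and T and NK cell markers (8 of 10) to between 236 and 361 CPM. In these bulk samples fewer cells of a type and less RNA per cell cannot be told apart.

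Proteasome genes were among the more abundant in AM. Per length and depth (FPKM, as deposited), the median member stood at 34.3 FPKM over all libraries, above 86.1% of the listed genes. The beta ring gene Psmb1 was the highest at 134.9 FPKM, followed by Psmd8, a small subunit of the lid of the cap, at 127.9 FPKM and Psma6 of the alpha ring at 124.0 FPKM. The constitutive beta ring ranged down to 13.9 FPKM for Psmb3, the alpha ring to 2.82 FPKM for Psma8, a form known from testis, and the non-ATPase subunits of the cap to 10.8 FPKM for Psmd11. Among the ATPases Psmc5 was highest at 75.0 FPKM and Psmc2 lowest at 24.5 FPKM. Immunoproteasome genes ranged from Psmb10 at 81.9 FPKM through Psme1 at 42.4 FPKM and Psmb8 at 41.9 FPKM to Psme2 at 22.3 FPKM, beside 67.3 FPKM for Psmb5 and 83.8 FPKM for Psmb7. The nuclear activator gene Psme3 stood at 40.9 FPKM and Psmf1, which encodes the inhibitor PI31, at 4.92 FPKM. The chaperone genes were lower, from Psmd10 (gankyrin) at 32.3 FPKM to Psmd9 at 5.43 FPKM in the cap and from Psmg4 at 15.95 FPKM to Psmg1 at 10.7 FPKM in the core. The plot of levels by role shows these means with the range over libraries.

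**Figure D1:**
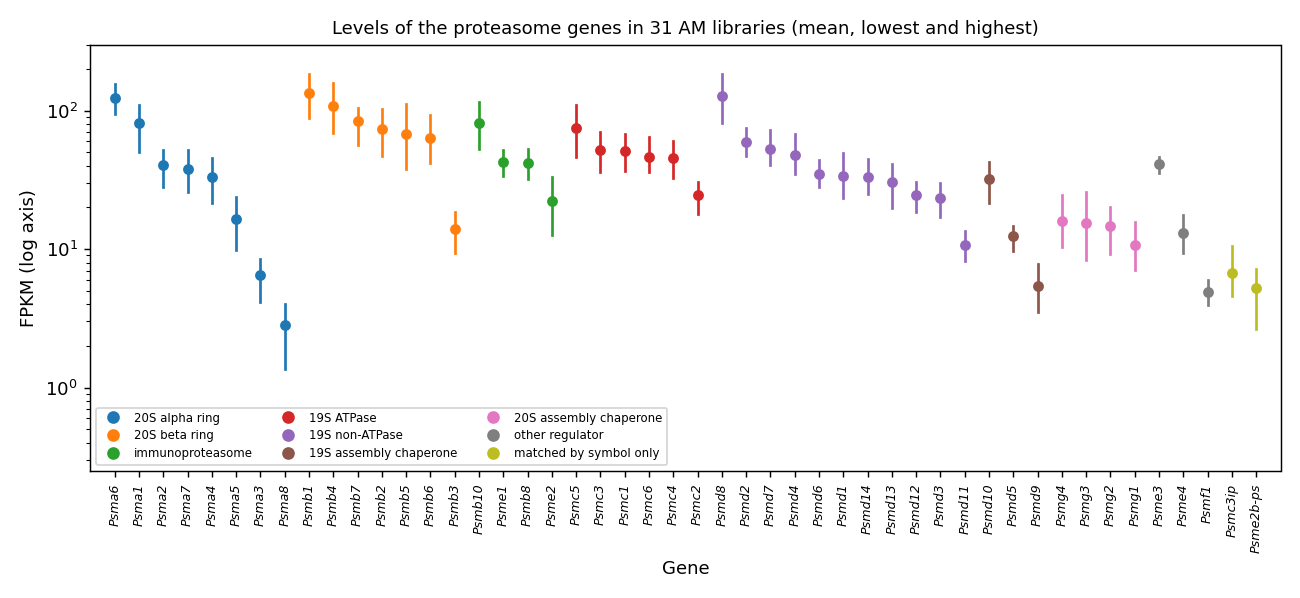
FPKM of the 48 genes on a log axis, grouped by role, with the mean of the 31 libraries as a point and the lowest and highest library as the ends of the line. Psmb1, Psmd8 and Psma6 were highest, and Psma8, at a mean of 2.82 FPKM, was lowest.

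Members varied little between mice of a group: the median coefficient of variation of CPM within groups was 8.18% over the 48 genes, from 4.16% to 20.1%. In many libraries the 32 subunits of the constitutive core and cap lay together: 29 to 32 were above their mean over the time point in each CS-exposed WT library at 7 days, and 0 to 5 in each CS-exposed RAGE null library at 4 months. Other libraries were split, with 20 above it in control WT replicate 1, 15 in control RAGE null replicate 3 and 13 in CS-exposed RAGE null replicate 1 at 7 days, and 16 in control WT replicate 1 at 4 months. Members of a library were not treated as independent of each other. The deviation of log2 CPM from the time point mean was averaged over these 32 subunits in each library. At 7 days this deviation was −0.14, 0.0026 and 0.090 in control WT and 0.11, 0.14, 0.22 and 0.28 in CS-exposed WT mice. It was −0.19, −0.11, −0.15 and −0.022 in RAGE null mice without and −0.18, −0.027, −0.11 and 0.077 with CS. The 4 CS-exposed WT libraries were the highest of the time point. At 4 months it was 0.13, −0.0077, 0.30 and 0.16 in control WT and 0.087, 0.18, 0.27 and −0.057 in CS-exposed WT mice, and it was −0.20, −0.13, 0.074 and −0.14 in control RAGE null and −0.32, −0.092, −0.15 and −0.092 in CS-exposed RAGE null mice. All 4 CS-exposed RAGE null libraries and 3 of the 4 control RAGE null libraries lay below 0, and 6 of the 8 WT libraries above it. Control RAGE null replicate 2 was the exception, and its type 2 and type 1 alveolar markers (174 and 91.9 CPM) were also the lowest of its group, whose other libraries held 242 to 361 CPM of type 2 markers. Their part in the result was not tested. For the 4 immunoproteasome genes the group means of this deviation lay between −0.044 and 0.045, with single libraries from −0.11 to 0.14 at 7 days and from −0.19 to 0.11 at 4 months.

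**Figure D2:**
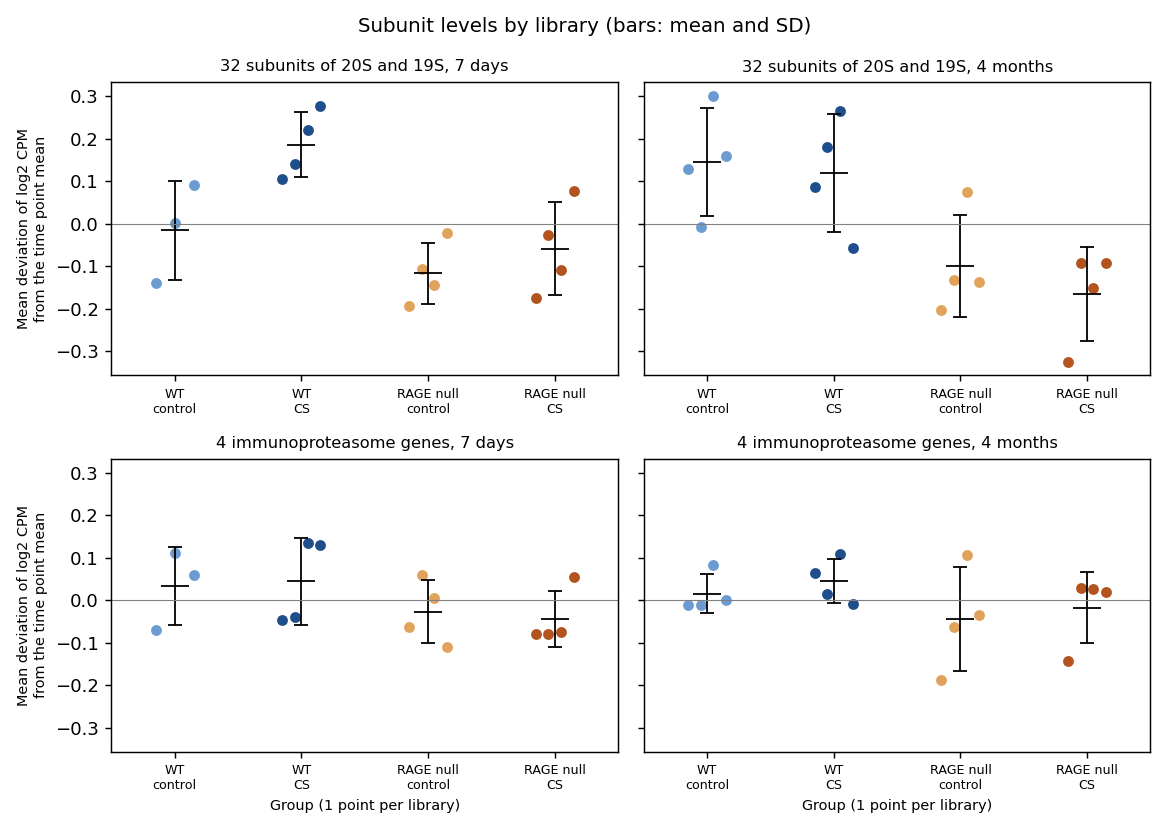
Mean deviation of log2 CPM from the time point mean in each library, for the 32 subunits of the 20S rings and the 19S cap, Psma8 included (upper row), and the 4 immunoproteasome genes (lower row) at 7 days and 4 months, with the mean and SD of each group. CS-exposed WT libraries were highest for the 32 subunits at 7 days, and at 4 months 3 of 4 control and all CS-exposed RAGE null libraries lay below 0, while the immunoproteasome genes ranged from −0.19 to 0.11.

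Most of the proteasome genes that passed a test did so between genotypes at 4 months, and all of these were higher in WT than in RAGE null mice. In control mice 19 of the 48 genes (39.6%) were higher in WT than in RAGE null mice and 0 were lower at an adjusted p under 0.05, against 21.3% of all genes tested (9.98% in the direction of higher in WT). With CS 22 of 48 (45.8%) were higher and 0 lower, against 10.8% of all genes (6.09% in that direction). The differences were small: the median log2 difference of the 48 genes was 0.21 in control and 0.25 in CS-exposed mice, against −0.0042 and −0.0059 over all genes, with 42 and 43 of 48 above 0, and 0 members passed at 1.5-fold or more, against 6.97% and 4.94% of all genes. The control and the CS-exposed mice are separate animals, and 15 genes passed in both, which is 78.9% of the 19 and 68.2% of the 22. The same overlap over all genes was not counted, and the comparisons share the fit of their time point and its estimate of the spread. Groups did not overlap for 9 members in control mice (9.57% of all genes in that direction) and for 21 in CS-exposed mice (10.1%). Both counts depended on single libraries. Leaving out control RAGE null replicate 2, the library with the higher subunit levels, gave 30 members in control mice, while leaving out control RAGE null replicates 0, 1 or 3 gave 4, 6 and 5 and leaving out control WT replicates 0, 2 or 3 gave 12, 3 and 10. In CS-exposed mice, leaving out WT replicates 0, 1 or 2 gave 13, 5 and 3, and leaving out RAGE null replicates 0 and 2 gave 8 (7 higher and Psma8 lower) and 12. With 1 library left out, 11.56% to 30.94% of all genes passed in control and 5.97% to 10.48% in CS-exposed mice. In control mice the lowest member count, 3 of 48, was below the lowest of these shares, and with CS 3 of 48 was near it. The excess of members over all genes thus did not hold with every library left out. Over all of these deletions the median log2 difference of the 48 genes stayed between 0.17 and 0.28 in control and between 0.21 and 0.30 in CS-exposed mice. In the same comparisons type 2 alveolar markers summed to 157 to 168 CPM in WT and 174 to 361 CPM in RAGE null controls and to 157 to 175 and 185 to 203 CPM with CS. Monocyte markers summed to 1316 to 1899 CPM in WT and 2182 to 3439 CPM in RAGE null controls and to 583 to 932 and 771 to 1510 CPM with CS. Dendritic cell markers summed to 19.8 to 40.2 CPM in WT and 9.14 to 19.2 CPM in RAGE null controls, without overlap, and to 2.91 to 5.67 and 2.17 to 3.46 CPM with CS. Type 1 alveolar markers (114 to 138 CPM in WT and 91.9 to 195 CPM in RAGE null controls, 95.5 to 127 and 95.9 to 125 CPM with CS) and red cell markers (0.244 to 4.503 and 1.79 to 224 CPM, 0.684 to 44.6 and 0.105 to 1.69 CPM) overlapped. The part of these cells in the result was not tested.

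By role, most of the genes that passed encode subunits of the core and the cap, and 0 belong to the immunoproteasome. In control mice they were 2 of 8 alpha ring genes, 4 of 7 constitutive beta ring genes, 4 of 6 ATPases, 8 of 11 other cap subunits and 1 of 3 cap chaperones, and 0 of the 4 immunoproteasome genes, 0 of the 4 core chaperones and 0 of the 3 other regulators. In CS-exposed mice they were 4 of 8, 4 of 7, 5 of 6, 7 of 11 and 1 of 3 in the same order, with 0 of 4 immunoproteasome genes, 0 of 4 core chaperones and 1 of 3 other regulators (Psme4). The median log2 differences were 0.20, 0.25, 0.29 and 0.26 for alpha ring, beta ring, ATPases and other cap subunits in control mice and 0.29, 0.23, 0.35 and 0.30 in CS-exposed mice. For the immunoproteasome they were 0.085 and 0.0063. That roles differ in their differences was not tested.

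**Figure D3:**
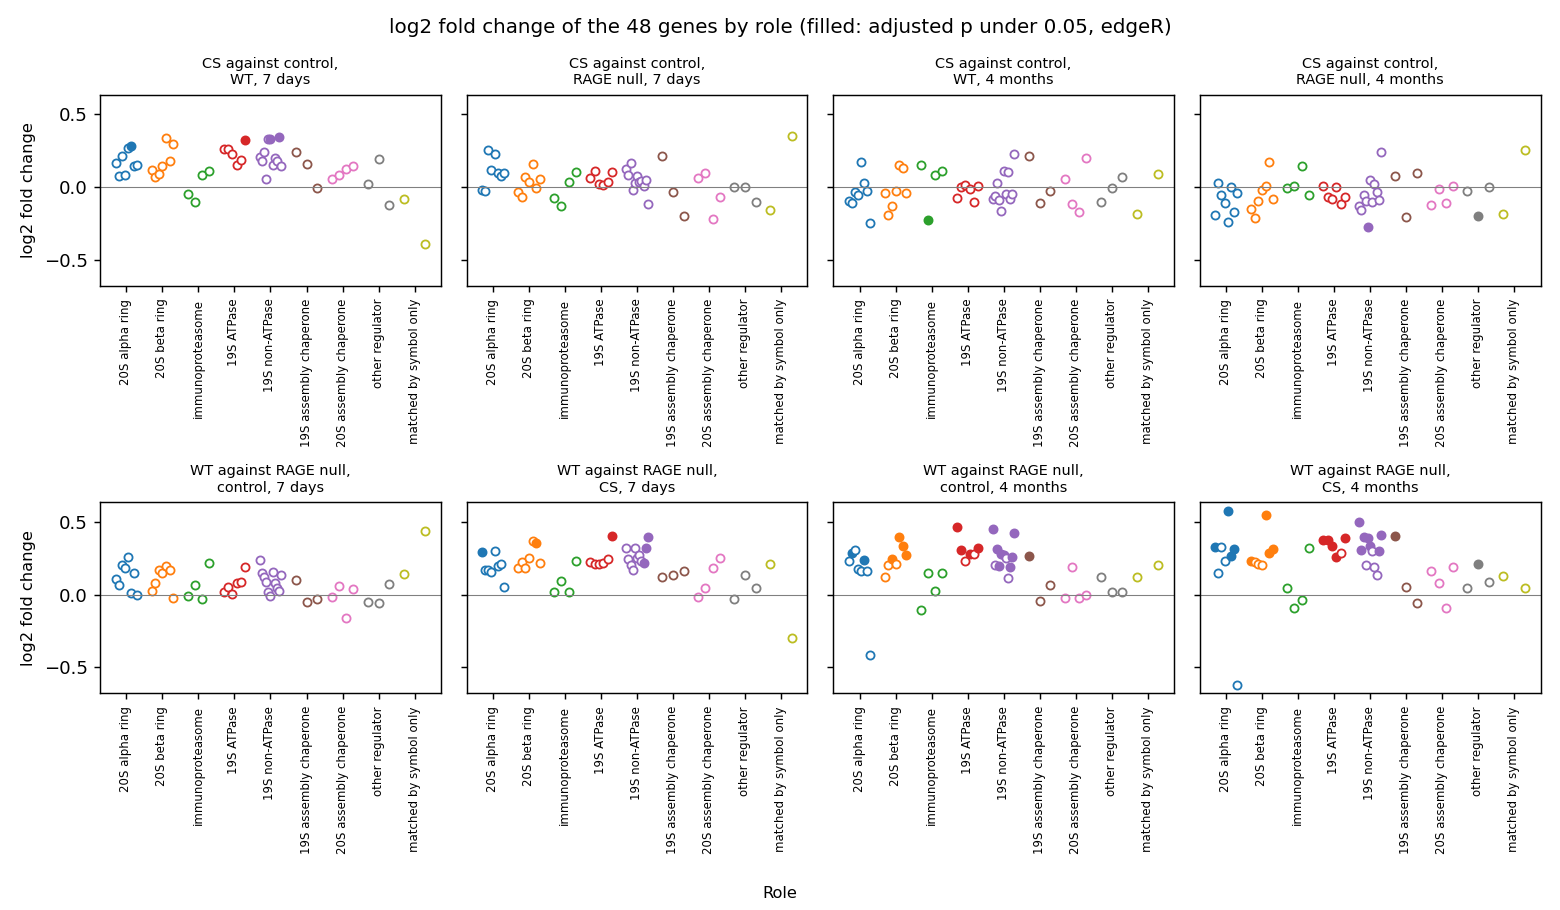
log2 fold change of each of the 48 genes in 8 comparisons, arranged by role, with filled points for an adjusted p under 0.05 in edgeR. In both genotype comparisons at 4 months the filled points (19 and 22 genes) lie above 0 and outside the immunoproteasome.

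Psmb5, the chymotrypsin-like subunit, had 55.2, 45.0, 58.8 and 50.1 CPM in control WT and 34.45, 39.8, 47.4 and 36.6 CPM in control RAGE null mice at 4 months, and 54.5, 60.5, 67.6 and 49.9 CPM in CS-exposed WT and 35.6, 42.0, 40.2 and 41.2 CPM in CS-exposed RAGE null mice. Control groups overlapped through 1 RAGE null library, and the CS-exposed groups did not overlap. The log2 difference was 0.40 ± 0.11 (SE, adjusted p = 0.0213, edgeR) in control and 0.55 ± 0.11 (adjusted p = 0.00570) in CS-exposed mice. Psmb6, the caspase-like subunit, had 104, 98.4, 112 and 104 CPM in control WT and 78.6, 83.6, 87.5 and 82.6 CPM in control RAGE null mice, which do not overlap, and differed by 0.33 ± 0.082 (adjusted p = 0.0122) in control and 0.29 ± 0.082 (adjusted p = 0.0340) in CS-exposed mice. Psmb7, the trypsin-like subunit, differed by 0.27 ± 0.093 (adjusted p = 0.0463) and 0.32 ± 0.093 (adjusted p = 0.0396). The genes of all 3 constitutive active sites thus passed in both comparisons. Of 16 alternatives other than the 1.5-fold threshold, Psmb7 passed under 9 in control (adjusted p up to 0.139) and 10 in CS-exposed mice (up to 0.125), Psmb5 under 13 (up to 0.0673) and 16, and Psmb6 under 16 and 10 (up to 0.119).

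In the cap, Psmd1, the large scaffold of its base, had 204, 169.6, 245 and 209 CPM in control WT and 133, 145, 187 and 139 CPM in control RAGE null mice. With CS it had 185, 206, 221 and 171 CPM in WT and 118, 149.9, 139 and 147 CPM in RAGE null mice, without overlap. The log2 difference was 0.45 ± 0.12 (adjusted p = 0.0184) and 0.50 ± 0.12 (adjusted p = 0.0167). The ATPase gene Psmc1 had 83.1, 70.7, 101 and 79.8 CPM in control WT and 56.9, 56.4, 68.5 and 60.4 CPM in control RAGE null mice, a difference of 0.46 ± 0.10 with the smallest adjusted p of the control mice, 0.00829. The alpha ring gene Psma2 (0.29 ± 0.071, adjusted p = 0.0131) and the ATPase gene Psmc4 (0.28 ± 0.076, adjusted p = 0.0195) also passed in control mice. In CS-exposed mice Psmd10, the chaperone gankyrin, had 46.3, 49.0, 52.9 and 46.4 CPM in WT and 33.1, 40.7, 34.7 and 38.6 CPM in RAGE null mice, a difference of 0.40 ± 0.077 (adjusted p = 0.00372). Psmd14, which encodes the deubiquitinase of the cap, differed by 0.39 ± 0.092 (adjusted p = 0.0132) and the ATPase genes Psmc2 and Psmc3 by 0.37 ± 0.089 (adjusted p = 0.0136) and 0.33 ± 0.082 (adjusted p = 0.0176). The alpha ring gene Psma5, singled out after its values were seen, had the greatest difference of a member that passed, 0.57, or 1.49-fold (adjusted p = 0.0194), at 21.1, 23.6, 27.2 and 20.2 CPM in WT and 13.2, 15.3, 15.2 and 18.1 CPM in RAGE null mice with CS.

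The remaining 12 genes that passed in control mice differed by 0.19 (Psmd6) to 0.42 (Psmd8) on the log2 scale, and the remaining 13 in CS-exposed mice by 0.21 (Psme4) to 0.41 (Psmd8).

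The immunoproteasome genes did not pass in either genotype comparison at 4 months. Psmb8, the inducible counterpart of Psmb5, had 107, 116, 108 and 108 CPM in control WT and 89.5, 103, 107 and 97.6 CPM in control RAGE null mice, which do not overlap but are close, at 107.0 CPM in the lowest WT and 106.6 CPM in the highest RAGE null library (0.15 ± 0.056, adjusted p = 0.0743). With CS it had 96.8, 91.1, 92.5 and 94.0 CPM in WT and 92.6, 98.4, 107 and 101 CPM in RAGE null mice, which overlap (−0.092 ± 0.057, adjusted p = 0.335). Psmb10, the counterpart of Psmb7, differed by −0.10 (adjusted p = 0.282) and 0.047 (adjusted p = 0.705). Of the 2 subunits of the 11S activator, Psme1 differed by 0.024 (adjusted p = 0.811) and −0.035 (adjusted p = 0.761), and Psme2 by 0.15 (adjusted p = 0.295) and, with CS, 0.32 ± 0.10 (adjusted p = 0.0539), where its groups (33.1, 32.7, 36.8 and 29.4 CPM in WT, 22.6, 29.2, 26.4 and 27.5 CPM in RAGE null) do not overlap. Psmb8 lies 396 kb from Ager on chromosome 17, so for this gene genotype and strain sequence that may flank the null allele cannot be told apart. Within 5 Mb of Ager 21.9% of 196 genes tested passed in control mice, against 21.3% elsewhere, and 19.4% against 10.7% with CS.

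**Figure D4:**
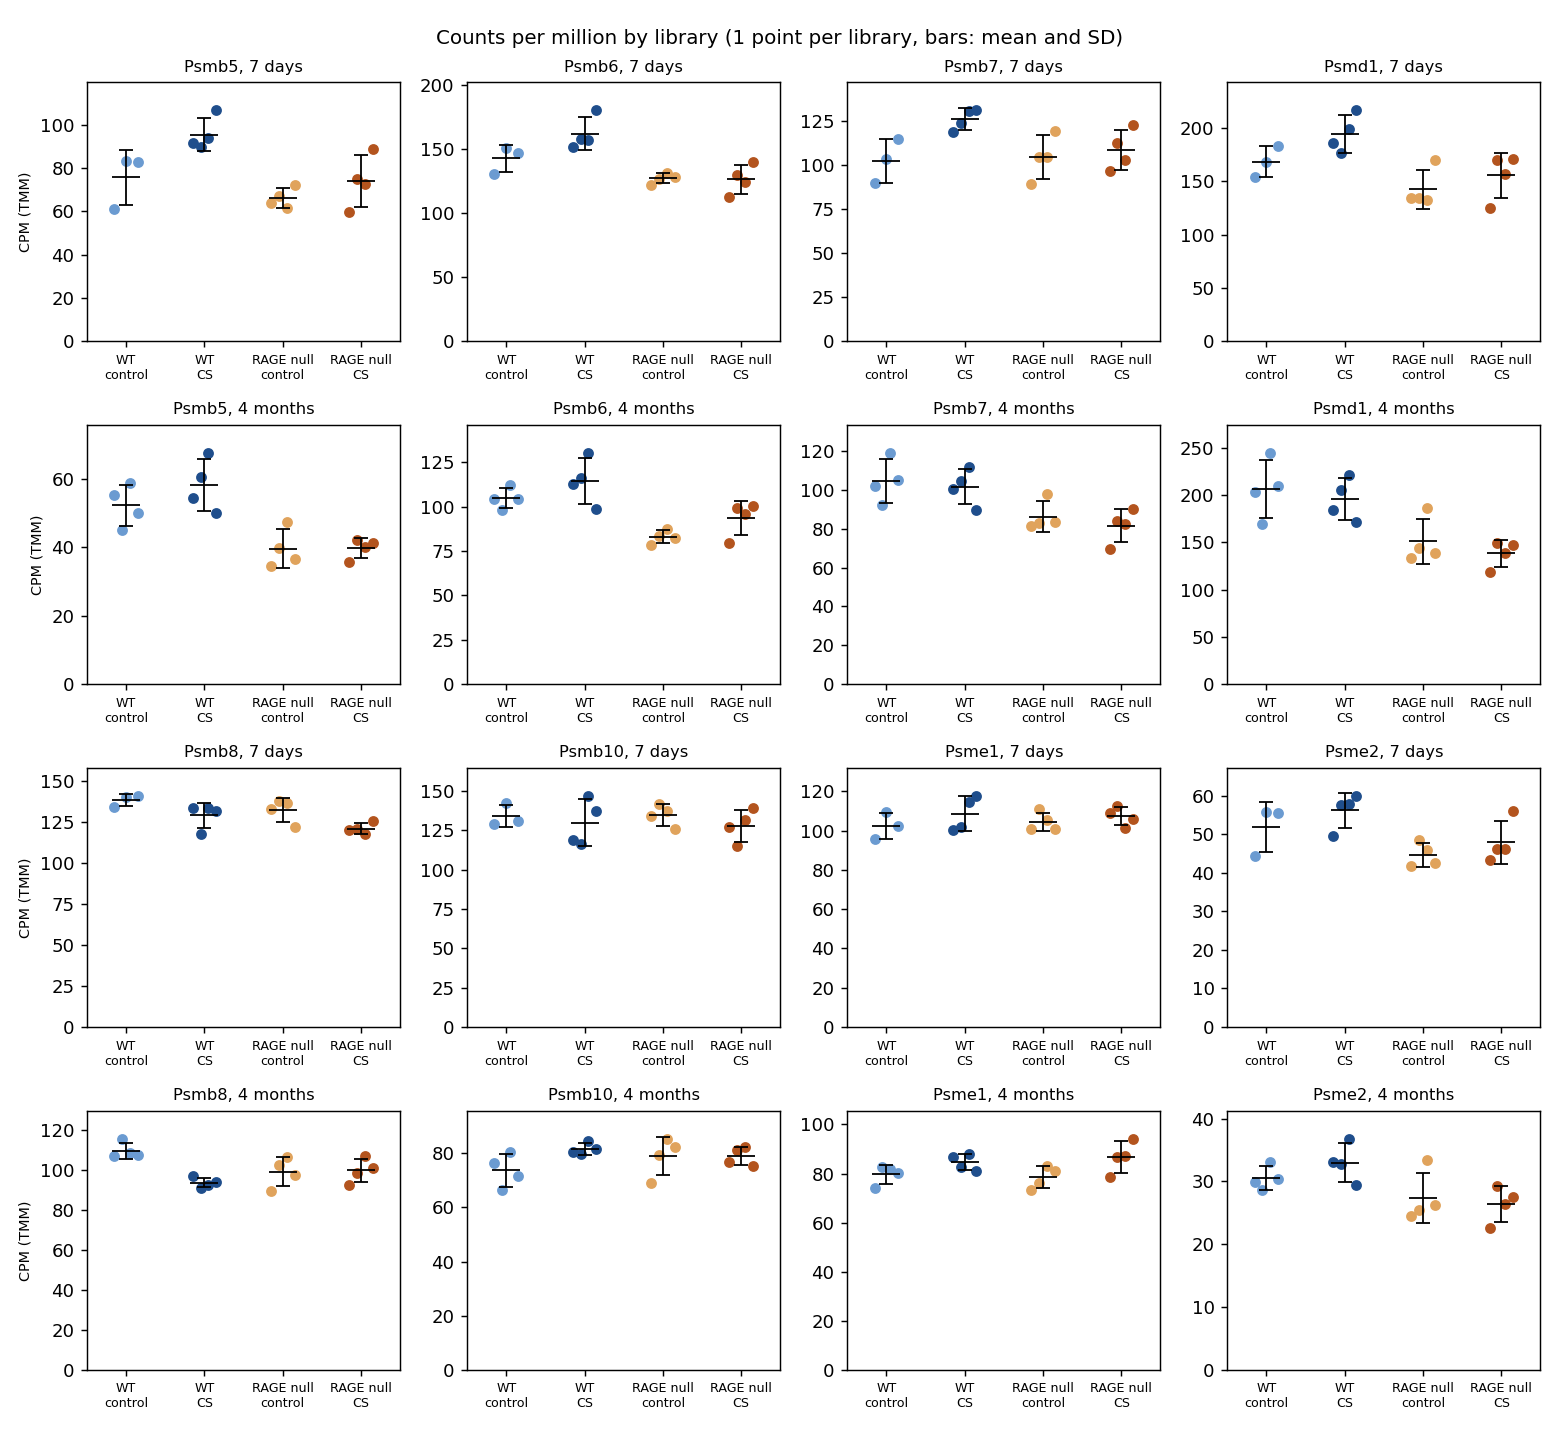
CPM (TMM-scaled) of the constitutive catalytic genes Psmb5, Psmb6 and Psmb7, the cap gene Psmd1 and the immunoproteasome genes Psmb8, Psmb10, Psme1 and Psme2 in each library at 7 days and 4 months, with the mean and SD of each group and axes from 0. At 4 months WT libraries of Psmb5 ran from 45.0 to 67.6 CPM and RAGE null libraries from 34.45 to 47.4 CPM, while the groups of Psme1 lay between 73.3 and 94.2 CPM.

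At 7 days fewer proteasome genes passed between genotypes than at 4 months, and whether the genotype difference changed with time was not tested. With CS 6 of 48 (12.5%) were higher in WT mice and 0 lower, against 4.45% of all genes (1.75% in that direction), and the groups of 18 members did not overlap, all higher in WT, against 5.51%. The median log2 difference was 0.21, with 45 of 48 above 0. Psmc6, an ATPase, had 122, 142, 124 and 137 CPM in WT and 89.9, 102, 97.3 and 108 CPM in RAGE null mice (0.41 ± 0.083, adjusted p = 0.0109). Psmb6 had 152, 158, 157 and 180.1 CPM in WT and 112, 129.5, 124 and 139 CPM in RAGE null mice (0.36 ± 0.073, adjusted p = 0.0115). The WT libraries lay above every RAGE null library for both. Psmd8 (0.40 ± 0.094, adjusted p = 0.0240), Psma1 (0.29 ± 0.069, adjusted p = 0.0243), Psmd7 (0.32, adjusted p = 0.0290) and Psmd6 (0.22 ± 0.055, adjusted p = 0.0319) were the others. Psmb5 (0.37, adjusted p = 0.0753), Psmb7 (0.22, adjusted p = 0.216), Psmb8 (0.093, adjusted p = 0.420), Psmb10 (0.021, adjusted p = 0.925), Psme1 (0.018, adjusted p = 0.923) and Psme2 (0.23, adjusted p = 0.190) did not pass. Type 2 alveolar markers summed to 147 to 177 CPM in these WT and 212 to 342 CPM in these RAGE null libraries, and dendritic cell markers to 9.31 to 20.8 and 5.63 to 8.57 CPM, both without overlap. Type 1 alveolar markers (122 to 139 and 132 to 190 CPM), monocyte markers (616 to 708 and 675 to 1239 CPM) and red cell markers (5.84 to 11.5 and 1.13 to 72.4 CPM) overlapped, and the part of these cells in the result was not tested. The count was 3 without CS-exposed WT replicate 1 or 3, 2 without replicate 2, and 3 without CS-exposed RAGE null replicate 0 or 2. With 1 library left out, 2.135% to 4.08% of all genes passed.

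In control mice at 7 days 0 of 48 genes passed in edgeR and 0 in DESeq2, against 9.89% of all genes in edgeR. At an unadjusted p under 0.05, for which the share of all genes is not given here, 6 members were higher and 0 lower. The median log2 difference was 0.076, with 37 of 48 above 0. Psmb5 differed by 0.20 ± 0.12 (adjusted p = 0.320), Psmb6 by 0.17 (adjusted p = 0.178) and Psmb7 by −0.026 (adjusted p = 0.896). Psmb8 differed by 0.066 (adjusted p = 0.538), Psmb10 by −0.0084 (adjusted p = 0.963), Psme1 by −0.028 (adjusted p = 0.836) and Psme2 by 0.22 (adjusted p = 0.171). The share of the proteasome genes that passed was thus below that of all genes in these mice. Type 2 alveolar markers summed to 145 to 164 CPM in these WT and 246 to 440 CPM in these RAGE null libraries. Monocyte markers summed to 822 to 1002 and 1320 to 1493 CPM and type 1 alveolar markers to 113 to 156 and 201 to 228 CPM. These did not overlap, while dendritic cell markers (17.1 to 32.3 and 9.64 to 27.0 CPM) did. The part of these cells in the result was not tested.

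After 7 days of CS few proteasome genes passed in WT mice, all of them higher with CS. In CS-exposed against control WT mice 4 of 48 genes (8.33%) rose and 0 fell, against 6.41% of all genes, or 3.14% that rose. The share over both directions was near that of all genes. The groups of 17 members did not overlap and were higher with CS, against 10.7% of all genes, and those of 1 member, Psmb8, did not overlap and were lower, against 10.2%. The median log2 fold change was 0.15 with 42 of 48 above 0, against −0.0030 over all genes. Psmd7, a subunit of the lid that pairs with the deubiquitinase, had 78.8, 86.3 and 94.6 CPM in control and 101, 109, 111 and 119 CPM in CS-exposed WT mice (0.35 ± 0.084, adjusted p = 0.0261). Psmd2, the second scaffold of the base, had 215, 234 and 231 CPM in control and 276, 268, 281 and 314 CPM with CS (0.33 ± 0.083, adjusted p = 0.0294). For both every exposed library lay above every control. Psma6 (0.29 ± 0.077, adjusted p = 0.0388) and Psmc6 (0.32 ± 0.089, adjusted p = 0.0431) also rose. The count of 4 became 0 without control replicate 0 or 1 or CS-exposed replicate 2 or 3 and 1 without CS-exposed replicate 1, and was 11 without control replicate 2. The share of all genes that passed moved in the same way. It was 0.73% and 0.51% without control replicate 0 or 1, and 10.05% without control replicate 2. Without CS-exposed replicate 1, 2 or 3 it was 2.755%, 2.86% and 2.72%. With any 1 library left out the median log2 fold change of the 48 genes stayed between 0.11 and 0.20.

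The catalytic genes did not pass after 7 days of CS in WT mice, with Psmb5 at 0.33 ± 0.12 (adjusted p = 0.106), Psmb6 at 0.18 (adjusted p = 0.164) and Psmb7 at 0.30 (adjusted p = 0.0861). Psmb8 stood at −0.10 (adjusted p = 0.328), Psmb10 at −0.045 (adjusted p = 0.782), Psme1 at 0.083 (adjusted p = 0.495) and Psme2 at 0.11 (adjusted p = 0.510). In the same contrast AM markers summed to 18180 to 21930 CPM in control and 24810 to 28970 CPM in CS-exposed libraries, monocyte markers to 822 to 1002 and 616 to 708 CPM, and red cell markers to 15.5 to 629 and 5.84 to 11.5 CPM, and depth was 15.3 to 17.0 and 11.67 to 14.8 M counts. Their part in the result was not tested.

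After 7 days of CS 0 of 48 genes passed in RAGE null mice in edgeR, against 0.9% of all genes, and 0 in DESeq2. At an unadjusted p under 0.05, for which the share of all genes is not given here, 4 were higher and 2 lower. The median log2 fold change was 0.038 (−0.0077 without CS-exposed RAGE null replicate 3). Psmb5 stood at 0.16 (adjusted p = 0.521), Psmb6 at −0.0067 (adjusted p = 0.975), Psmb7 at 0.054 (adjusted p = 0.821), Psmb8 at −0.13 (adjusted p = 0.294), Psmb10 at −0.074 (adjusted p = 0.689), Psme1 at 0.037 (adjusted p = 0.828) and Psme2 at 0.10 (adjusted p = 0.640). Monocyte markers summed to 1320 to 1493 CPM in control and 675 to 1239 CPM in CS-exposed RAGE null mice. Type 1 alveolar markers summed to 201 to 228 and 132 to 190 CPM and dendritic cell markers to 9.64 to 27.0 and 5.63 to 8.57 CPM. These did not overlap, and their part in the result was not tested. Whether the response differed between genotypes was tested as the interaction, which 0 of 48 members and 0% of all genes passed in edgeR (0 members in DESeq2). At an unadjusted p under 0.05, again without a share of all genes, 3 members were higher and 1 lower. A difference between the CS responses of the genotypes in these genes was therefore not shown at 7 days.

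After 4 months of CS few proteasome genes differed from controls. In WT mice 0 of 48 rose and 1 fell, against 14.3% of all genes, and the median log2 fold change was −0.031 (0.029 without control WT replicate 2 and 0.018 without CS-exposed WT replicate 3). The gene that fell was Psmb8, with 107, 116, 108 and 108 CPM in control and 96.8, 91.1, 92.5 and 94.0 CPM in CS-exposed WT mice. Every exposed library lay below every control, and the log2 fold change was −0.23 ± 0.056 (adjusted p = 0.0131, edgeR). It passed under the 16 alternatives other than the 1.5-fold threshold, which it did not reach, with an adjusted p between 0.00198 and 0.0445. Psmb8 in RAGE null mice stood at 0.0089 (adjusted p = 0.930). The interaction for Psmb8 was −0.24 ± 0.080 (unadjusted p = 0.00899, adjusted p = 0.263), so the responses of the genotypes were not shown to differ. The gene on the other strand of Psmb8 is Gm20496. Monocyte markers summed to 1316 to 1899 CPM in control and 583 to 932 CPM in CS-exposed WT mice and dendritic cell markers to 19.8 to 40.2 and 2.91 to 5.67 CPM. AM markers summed to 20450 to 22730 and 26300 to 29960 CPM, and the part of these cells in the result was not tested.

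The other named genes did not pass after 4 months of CS in WT mice. Psmb5 stood at 0.15 (adjusted p = 0.386), Psmb6 at 0.13 (adjusted p = 0.329) and Psmb7 at −0.040 (adjusted p = 0.823). Psmb10 stood at 0.15 (adjusted p = 0.158), Psme1 at 0.085 (adjusted p = 0.381) and Psme2 at 0.11 (adjusted p = 0.501). Of the 48 genes 0 rose and 2 fell (4.17%) in RAGE null mice, against 20% of all genes. Psme4, which encodes the activator PA200, had 127, 136, 138 and 132 CPM in control and 119, 115, 106 and 124 CPM in CS-exposed RAGE null mice (−0.20 ± 0.060, adjusted p = 0.0299). Psmd14 had 84.0, 84.7, 106 and 91.8 CPM in control and 71.8, 84.1, 72.6 and 75.1 CPM with CS (−0.27 ± 0.092, adjusted p = 0.0487). The groups did not overlap for Psme4 and overlapped for Psmd14. Psme4 passed under 10 and Psmd14 under 8 of the same 16 alternatives. The count was 0 without control RAGE null replicate 2 or 3 or CS-exposed RAGE null replicate 2, 1 without CS-exposed replicate 1 or 3, and 4 (Psmb6, Psmd8 and Psme1 higher and Psme4 lower) without CS-exposed replicate 0. With 1 library left out, 12.95% to 24.9% of all genes passed. Monocyte markers summed to 2182 to 3439 CPM in control and 771 to 1510 CPM in CS-exposed RAGE null mice. Dendritic cell markers summed to 9.14 to 19.2 and 2.17 to 3.46 CPM and AM markers to 21460 to 24140 and 24230 to 29680 CPM. The part of these cells in the result was not tested.

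At 4 months Psmb5 (0.0053), Psmb6 (0.17), Psmb7 (−0.082), Psmb10 (−0.0025), Psme1 (0.14) and Psme2 (−0.054) did not pass in RAGE null mice, at adjusted p values of 0.980, 0.1497, 0.575, 0.984, 0.104 and 0.743 in edgeR. The interaction was passed by 0 of 48 members in edgeR, against 0.0613% of all genes, and by 0 in DESeq2. The response to CS at 4 months minus that at 7 days was passed by 0 of 48 members in WT mice (1 in DESeq2), against 1.22% of all genes. The same difference in RAGE null mice was passed by 0 (0 in DESeq2), against 2.77%. At an unadjusted p under 0.05 the interaction had 1 member higher and 1 lower. The difference of the responses had 0 higher and 11 lower in WT and 2 higher and 1 lower in RAGE null mice. The share of all genes at that unadjusted threshold is not given here. The median difference of the responses in WT mice was −0.19 on the log2 scale, with 42 of 48 below 0.

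The balance of inducible to constitutive subunits was read as a ratio of FPKM, which is on the scale per length and carries no test here. Psmb8 over Psmb5 was 0.743, 0.568 and 0.574 in control WT and 0.491, 0.443, 0.481 and 0.415 in CS-exposed WT mice at 7 days. RAGE null mice had 0.702, 0.694, 0.750 and 0.571 without and 0.682, 0.542, 0.545 and 0.478 with CS. With CS the ratio was lower in WT mice without overlap, at a log2 difference of −0.45 against a pooled SD of 0.16. The log2 difference in RAGE null mice was −0.28, with overlap. At 4 months it was 0.653, 0.865, 0.621 and 0.723 in control WT and 0.598, 0.508, 0.462 and 0.634 in CS-exposed WT mice. RAGE null mice had 0.876, 0.868, 0.758 and 0.899 without and 0.876, 0.789, 0.896 and 0.826 with CS. Every CS-exposed WT library lay below every CS-exposed RAGE null library (−0.63, pooled SD 0.16), and the control groups overlapped (−0.26).

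Psmb10 over Psmb7 was 1.38, 1.32 and 1.09 in control WT and 0.959, 0.897, 1.08 and 1.003 in CS-exposed WT mice at 7 days, and ranged from 1.01 to 1.44 and from 0.979 to 1.26 in control and CS-exposed RAGE null mice. At 4 months it ranged from 0.645 to 0.715 in control WT and from 0.724 to 0.868 in CS-exposed WT mice. RAGE null mice ranged from 0.811 to 0.946 in controls and from 0.798 to 1.05 with CS. The ratio was lower with CS in WT mice at 7 days (−0.36) and higher at 4 months (0.19), both without overlap, and in control mice at 4 months it was lower in WT than in RAGE null mice without overlap (−0.38). Psmb7, Psmb8 and Psmb10 are among the members that a gene on the other strand overlaps, and Psmb5 is overlapped by a gene on the same strand.

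**Figure D5:**
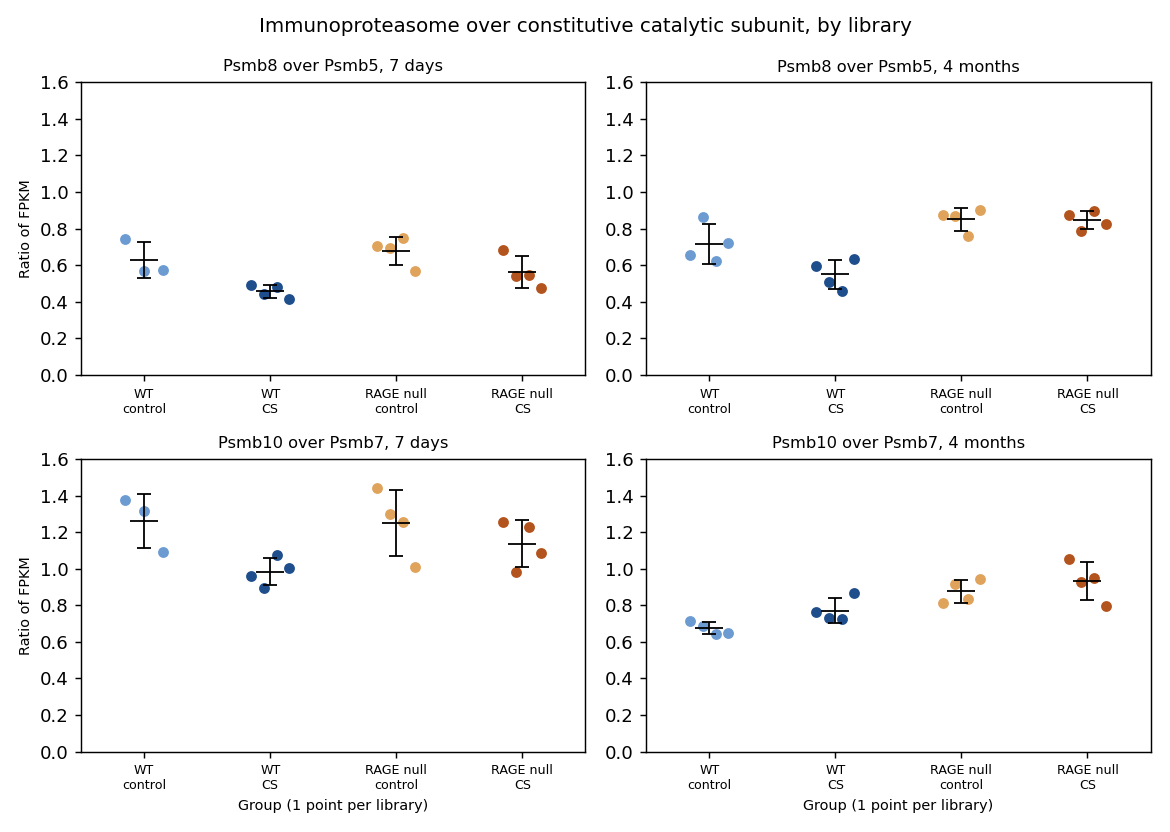
Ratio of FPKM of Psmb8 to Psmb5 (upper row) and of Psmb10 to Psmb7 (lower row) in each library at 7 days and 4 months, with the mean and SD of each group. At 4 months Psmb8 over Psmb5 lay between 0.462 and 0.634 in CS-exposed WT and between 0.789 and 0.897 in CS-exposed RAGE null mice.

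Genes that work beside the proteasome were counted against the share of all genes that passed in either direction. Of 11 parts and partners of the particle outside the symbol rule, 2 were higher in control WT than in control RAGE null mice at 4 months, where 21.3% of all genes passed. They were Usp14, a deubiquitinase bound to the cap, at 116, 116, 132 and 116 against 94.9, 84.2, 104 and 89.4 CPM (0.37, adjusted p = 0.00263), and Txnl1, a thioredoxin of the cap, at 0.29 (adjusted p = 0.0375). With CS 4 of the 11 were higher in WT mice, where 10.8% of all genes passed, with the smallest p for Txnl1 (0.41, adjusted p = 0.0109), Usp14 (0.26, adjusted p = 0.0198) and Pomp, the maturation factor of the core (0.30, adjusted p = 0.0342). In CS-exposed mice at 7 days Txnl1 (0.36, adjusted p = 0.0155) and Zfand5 (0.30, adjusted p = 0.0409) were higher in WT (4.45% of all genes), and Txnl1 alone of the 11 rose with CS in WT mice (6.41% of all genes; 0.33, adjusted p = 0.0320). In control mice at 7 days, where 9.89% of all genes passed, 1 of the 11 was higher in WT (Zfand5, 0.36, adjusted p = 0.0158), and after 4 months of CS 1 fell in RAGE null mice (20% of all genes; Akirin2, −0.25, adjusted p = 0.0172). Of the 11, 0 passed after 7 days of CS in RAGE null mice and 0 after 4 months in WT mice. Of 14 ubiquitin and shuttle genes, Vcp, the segregase that extracts ubiquitinated proteins, was higher in WT at 4 months in control (0.33, adjusted p = 0.0215) and CS-exposed mice (0.39, adjusted p = 0.0141), and 2 of the 14 passed in each of these comparisons. With CS in WT mice 2 of the 14 rose at 7 days (Vcp, 0.30, adjusted p = 0.0459, and Ubqln2, a shuttle factor, 0.31, adjusted p = 0.0444) and 1 at 4 months (14.3% of all genes; Ubqln2, 0.22, adjusted p = 0.0475), and 0 passed in the other 4 comparisons of CS or genotype.

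Of 4 regulators of proteasome transcription, Nfe2l2 rose with CS in WT mice at 7 days (6.41% of all genes passed), from 264, 273 and 320.3 CPM to 381, 385, 359 and 363 CPM, without overlap (0.38 ± 0.080, adjusted p = 0.0150). Its log2 fold change in RAGE null mice was 0.16 (adjusted p = 0.295). Nfe2l1 stood at 0.21 in WT mice (adjusted p = 0.0704). Between genotypes at 4 months Nfe2l2 differed by 0.30 in control (adjusted p = 0.0720) and 0.28 in CS-exposed mice (adjusted p = 0.126), and Nfe2l1 by 0.025 (adjusted p = 0.771) and 0.10 (adjusted p = 0.243). Ddi2, the protease that releases Nrf1, was lower in control WT than in control RAGE null mice at 4 months (−0.52, adjusted p = 0.00627). Nfe2l1 was lower in control WT than in control RAGE null mice at 7 days (−0.22, adjusted p = 0.0496), and 0 of the 4 passed in the other 5 comparisons. The messages of these factors do not measure their activity.

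Around the immunoproteasome, of 10 class I antigen processing genes 2 rose and 1 fell with CS in WT mice at 7 days, where 6.41% of all genes passed, the chaperones Calr (0.59, adjusted p = 0.00567) and Pdia3 (0.43, adjusted p = 0.0206) and the peptide transporter Tap1 (−0.30, adjusted p = 0.0286). At 4 months Tapbp, the bridge to the transporter, and H2-D1, a class I heavy chain, rose with CS in both genotypes (14.3% of all genes passed in WT and 20% in RAGE null mice), in WT by 0.23 (adjusted p = 0.0140) and 0.24 (adjusted p = 0.0266). Nlrc5, the transactivator of class I genes, had 16.9, 19.1, 22.4 and 22.9 CPM in control WT and 10.3, 12.9, 15.3 and 10.6 CPM in control RAGE null mice at 4 months (0.72, adjusted p = 0.00381), and was also higher in WT with CS at 4 months (0.52, adjusted p = 0.0269) and in control mice at 7 days (0.70, adjusted p = 0.0146). Of the 10, 0 passed in the other 2 comparisons of CS or genotype. Of 13 interferon-gamma response genes, 1 fell with CS in WT mice at 7 days (Ciita, the transactivator of class II genes, −1.21, adjusted p = 0.0429). In control mice Cxcl9 and Irgm2, a GTPase, were higher in WT at 7 days (1.16, adjusted p = 0.0146, and 0.43, adjusted p = 0.0199) and at 4 months (1.14, adjusted p = 0.00395, and 0.41, adjusted p = 0.00373), and 0 of the 13 passed in the other 2 comparisons at 7 days. Cxcl9, a chemokine, and Socs1, a feedback inhibitor, fell after 4 months of CS in WT (−0.86, adjusted p = 0.0152, and −1.28, adjusted p = 0.00423) and in RAGE null mice (−1.68, adjusted p = 0.000793, and −1.67, adjusted p = 0.000796), where Irf8 was the 1 gene of the 13 that rose (0.36, adjusted p = 0.00283). Cxcl9 had 3.40, 2.62, 3.80 and 3.93 CPM in CS-exposed WT and 0.539, 0.995, 0.992 and 0.920 CPM in CS-exposed RAGE null mice (1.97, adjusted p = 0.000273), and Irgm2 (0.43, adjusted p = 0.00271) and the chemokine gene Cxcl10 (2.54, adjusted p = 0.0183) were also higher in WT there. Dendritic cell markers summed to 19.8 to 40.2 CPM in control and 2.91 to 5.67 CPM in CS-exposed WT mice at 4 months, and their part in these values was not tested.

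Over the 8 comparisons of CS or genotype, 27 of the 48 genes passed at least once and 21 in none. The share of all genes that passed at least once was not counted, and up to 21.3% of them passed in a single comparison. The 21 include all 4 core chaperones Psmg1 to Psmg4, the immunoproteasome genes Psmb10, Psme1 and Psme2, the regulators Psme3 and Psmf1, the ubiquitin receptor gene Psmd4, the cap chaperones Psmd5 and Psmd9, and both genes matched by symbol only. Of the constitutive core, Psma3, Psma4, Psma8, Psmb2 and Psmb4 were among them, and of the cap Psmc5 and Psmd3. Psme3 lay at 111 to 129.8 CPM over the 15 libraries at 7 days and 106 to 134 CPM over the 16 at 4 months. Psma8, counted at 3.19 to 6.20 CPM at 7 days and 2.32 to 6.96 CPM at 4 months, had the lowest counts of the ring subunits.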

How the data were processed

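RNA of AM was sequenced as single-end reads of 50 bases. Per the submitters' notes and the study's methods, the authors aligned them to mm10 with Novoalign, removed reads placed at several locations, counted the rest per gene with USeq and tested with DESeq. The deposited table holds raw counts and FPKM, both used here, and the gene length in bases. Its log2 ratios and the scores the authors derived from adjusted p-values hold the study's own comparisons and were not used. Listed genes reach at least 20 counts in some library, and 1 line was empty. Here counts were fitted in edgeR 4.0.16 (R 4.3.3, limma 3.58.1), each time point alone with 1 coefficient per group, after filterByExpr (minimum count 10, total 15) and TMM scaling, by the 2-sided quasi-likelihood F test, with Benjamini-Hochberg adjustment over all genes (13220 at 7 days, 13045 at 4 months). A gene passed at an adjusted p under 0.05. The responses at both times were compared in 1 fit of all 31 libraries (13408 genes). The fit was tested on simulated data. Fold changes set CS over control and WT over RAGE null. P-values cover the spread between mice of a group. At the lowest depth 30 counts correspond to a wide counting error, and FPKM was used only for levels between genes and ratios, with no test.

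The members and lists were chosen with earlier results of these data known. Named in every comparison were Psmb5, Psmb6, Psmb7, Psmb8, Psmb10, Psme1 and Psme2, with up to 6 members of smallest p among those that passed and those past 1.5-fold. Up to 3 genes per other list and the highest and lowest FPKM of each role were also named. Alternatives were DESeq2 1.42.0, edgeR with its size factors, all genes unfiltered, a minimum of 20 counts per library, a 1.5-fold threshold, a replicate block, only the groups compared and each library left out. Library totals only and upper quartile scaling were chosen after the data were seen. Motifs were searched with Python 3.11.15 in promoters of RefSeq (GRCm38.p6). Psmb9 was not analysed here, so its planned ratio to Psmb6 was not computed.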

Additional observations from a re-analysis of the deposited data

Results flagged for a closer look

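In 70 tests of a group of 4 libraries for 1 library far from the other 3 (Dixon's test at 95%, which chance passes in about 1 of 20), 3 values of single genes stood out. Psmb7 was highest in control RAGE null replicate 2 at 4 months, at 98.0 CPM, with the other 3 libraries between 81.4 and 83.3 CPM. Psmb8 was lowest in CS-exposed WT replicate 1 at 7 days, at 118 CPM, with the others between 132 and 134 CPM. Psmb8 was highest in control WT replicate 1 at 4 months, at 116 CPM, with the others between 107 and 108 CPM, and this was the library with 34.49 M counts.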

How the results depend on the processing

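No single named gene changed sign where it passed in the reported test or under the alternative. With 1 library left out the median over the 48 genes took either sign after CS in RAGE null mice at 7 days (−0.0077 to 0.074) and at 4 months (−0.086 to 0.018, above 0 without control replicate 2) and in WT mice at 4 months (−0.080 to 0.029), and the 2 that fell in RAGE null mice at 4 months became 3 higher and 1 lower without CS-exposed replicate 0. In WT mice after 7 days of CS the 4 members that passed became 9 in DESeq2, 2 with library totals only and 0 to 11 with 1 library left out. Between genotypes in control mice at 7 days the count of 0 became 1 with the replicate block. With CS at 7 days the 6 became 14 in DESeq2, 12 with the replicate block and 2 to 6 with 1 library left out. After 4 months of CS the 1 in WT mice became 2 with library totals only and 2 with only the groups compared (1 higher and 1 lower), and stayed at 1 with any 1 library left out. The 2 in RAGE null mice became 4 with library totals only, 1 with upper quartile scaling, 1 with no filter, 0 with only the groups compared and 0 to 4 with 1 library left out. Between genotypes at 4 months the 19 in control mice became 10 with only the groups compared and 3 to 30 with 1 library left out, and the 22 with CS became 3 to 26. For 4 months against 7 days the 0 in WT mice became 1 in DESeq2 and 0 to 2 with 1 library left out (2 without control WT replicate 2 at 7 days), and the 0 in RAGE null mice 0 to 1. A threshold of 1.5-fold left 0 members in every comparison. Counts with 1 library left out stand beside a share of all genes that also moved. After 7 days of CS in WT mice this share ran from 0.51% to 10.05%. Between genotypes with CS at 7 days it ran from 2.135% to 4.08%, and after 4 months of CS in RAGE null mice from 12.95% to 24.9%. Between genotypes at 4 months it ran from 11.56% to 30.94% in control and from 5.97% to 10.48% in CS-exposed mice. The median over the 48 genes kept its sign under every scaling in WT mice after 7 days of CS (0.10 to 0.16), and between genotypes with CS at 7 days (0.19 to 0.22), in control mice at 4 months (0.21 to 0.22) and with CS at 4 months (0.23 to 0.25).

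The labels tie libraries with the same replicate number by that number only, and whether such libraries were handled together is not given. The mean correlation of their residuals was between −0.0445 and 0.0891 over the 8 comparisons, with single pairs from −0.226 to 0.2. These values cannot exclude a shared batch. With the replicate block the counts were 4 in WT mice after 7 days of CS, 23 and 26 between genotypes in control and CS-exposed mice at 4 months and 3 in RAGE null mice after 4 months of CS. Of the alternatives for single named genes, 358 kept and 86 lost the test where it was passed, and 15 gained it and 1383 did not where it was not. All 140 alternatives for ratios moved them by less than 1 SD. With 3 or 4 mice in a group, differences of the size seen here (under 1.5-fold) lie near what these groups can separate, and a p that misses the threshold does not show equal levels.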
